A study of Mus musculus with 10 samples.

Results

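Heparan sulfate is a long sugar chain that cells attach to a small set of core proteins and then sulfate at chosen positions. The 37 genes described here are mouse core proteins that carry it, enzymes that build and sulfate it, and enzymes that edit it outside the cell. They were listed by family, and the list as a whole was chosen by the level of 1 of them, Hs3st1, which is among the genes most raised in Foxa2+ over Foxa2− cardiac mesoderm. Hs3st1 therefore gets no test in any comparison with cardiac mesoderm (CM). All 37 were found among the 38924 genes counted. The list does not hold every gene of these kinds, and sums by family cover listed genes only.

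RNAseq was performed on 10 samples sorted from differentiating mouse embryonic stem cells at day 5. All came from the Foxa2-hCD4 line, in which the Foxa2 locus drives a truncated human CD4, so that surface hCD4 reports Foxa2 transcription. Cardiac cultures received Activin A at 8 ng/ml together with BMP4 and VEGF, and 3 populations were sorted from them. Foxa2+ CM (n = 3) were Kdr+Pdgfra+ hCD4+ cells, Foxa2− CM (n = 3) were Kdr+Pdgfra+ hCD4− cells, and haematopoietic mesoderm (n = 2) came from the Kdr-high gate that the labels call Flk1+ high. Foxa2+ endoderm (n = 2) was sorted as hCD4+ cells from separate cultures. For these the paper lists Activin A at 75 ng/ml and neither BMP4 nor VEGF, so endoderm identity and culture conditions cannot be told apart. All samples share 1 reporter line, and nothing in the labels says which samples came from separate cultures, so p-values measure the spread between these samples, which may be technical.

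The backbone of heparan sulfate starts when a xylosyltransferase primes a core protein, and the Ext proteins then polymerise it from alternating sugars. N-deacetylase/N-sulfotransferases, an epimerase, and 2-O-, 6-O- and 3-O-sulfotransferases then modify stretches of the chain, 3-O-sulfation being the rarest step and the one that creates binding sites for selected proteins. Glypicans (anchored to the membrane by a lipid) and syndecans (which span it) display the chains on cells, perlecan and agrin carry them in the matrix, and in early embryos the chains bind FGF, BMP, Wnt and Hedgehog ligands.

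Between 10926284 and 17470126 reads per sample were counted on genes, so that 3 counts, the smallest signal taken as detectable, correspond to 0.172 to 0.275 CPM (counts per 1000000 counts). CPM values below are scaled to TMM library sizes over the 10 samples. In Foxa2+ CM, Foxa2 itself stood at 20.01, 16.0 and 3.49 CPM, against 2.54, 0.872 and 0.902 in Foxa2− CM, 185 and 182 in endoderm, and 0.689 and 0.787 in haematopoietic mesoderm. The third Foxa2+ CM library is thus close in Foxa2 to the first Foxa2− CM library, and values without it are given beside the CM results. The summed level of 5 endoderm markers (Foxa2, Foxa1, Sox17, Cer1, Epcam) was 82.7, 72.8 and 49.2 CPM in Foxa2+ CM, 38.5 to 48.8 in Foxa2− CM, 34.8 to 42.6 in haematopoietic mesoderm, and 714 and 796 in endoderm. Between the CM populations the sum was higher through Foxa2 and Sox17 (a mean of 23.6 against 5.46 CPM), while Foxa1 (1.05 against 1.94), Cer1 (0.804 against 0.881) and Epcam (29.6 against 32.6) had lower means in Foxa2+ CM. The endothelial genes Cdh5 and Pecam1 summed to 205 and 413 CPM in haematopoietic mesoderm and to 70.0 in the third Foxa2− CM library, against 2.61 to 19.3 in the other 7. The pluripotency genes Pou5f1, Nanog and Sox2 were still present in endoderm at a sum of 365 and 370 CPM, against 73.3 to 112 in Foxa2− CM and 38.9 to 45.7 in Foxa2+ CM. Chrd, a gene of the node, stood at 197 to 250 CPM in endoderm and at or under 3.51 elsewhere. Of the same marker list, Noto stood at only 5.40 and 5.43 CPM in endoderm, and Shh at 0.0931 and 0.919 CPM, on 1 and 11 counts. The 5 cardiac mesoderm markers (Pdgfra, Kdr, Gata4, Nkx2-5, Hand1) summed to 925 to 1182 CPM in CM, 710 and 881 in haematopoietic mesoderm and 119 and 206 in endoderm. The embryonic globin Hba-x was at 0 in all 10 samples and Hbb-bh1 reached 23.2 CPM in 1 haematopoietic mesoderm library, and the neural genes Pax6 and Sox1 summed to at most 3.18 CPM. No pair of replicates agreed within sampling noise, and the haematopoietic mesoderm pair was the farthest apart, its chi-square over degrees of freedom being 24.9 against 4.18 to 15.2 for the other pairs.

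Of the 37 genes, 33 passed the expression filter and 4 did not. Ndst4 had 0 counts in every library, which allows up to 3 counts in each, and Gpc5, Ndst3 and Hs3st2 never exceeded 5, 6 and 6 counts. Of the 33, 27 were above the filter level in every sample of all 4 groups, and 1, Hs6st3, was so in only 1 group and passed through it. Per exonic kilobase, the scale on which levels of different genes can be set side by side, the highest mean over the 10 samples was that of the glypican Gpc3 (75.6 CPM per kb), followed by perlecan Hspg2 (37.6), the sulfatase Sulf2 (34.1), agrin Agrn (32.6) and Extl3 (29.1). Hs3st1 ranked 26 of 37 at 4.95 CPM per kb.

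The first question is how Foxa2+ CM differed from Foxa2− CM. Beside Hs3st1, the sulfotransferases Hs3st5 and Hs6st3 and the core proteins Gpc4 and Sdc2 were higher in Foxa2+ CM, and the sulfotransferases Hs3st3a1 and Hs3st3b1 were lower. No gene of chain initiation, chain polymerisation, N-sulfation, epimerisation, 2-O-sulfation or extracellular editing was called in the main fit of the 6 CM libraries. Each step holds few genes and few of all genes were called, so nothing is read from this absence. A replicate block (a term for the replicate number) called 13 members, and 2556 genes over all against 990 in the main fit. A gene is called here at a Benjamini-Hochberg adjusted p under 0.05 over all genes in edgeR's quasi-likelihood test. By that rule 6 of the 32 tested genes were called, 4 higher and 2 lower, where 6.48% of the 15284 genes tested were called, 3.81% higher and 2.66% lower. Because Hs3st1 in this contrast is what drew attention to the list, nothing is read from that count. Of the 6, Hs3st5, Hs3st3a1 and Hs6st3 passed the expression filter of this fit only through the CM group in which they are higher, so their passing was not independent of the difference, and values from the fit with no filter are given beside theirs. Of the other 29 tested members 3 were called, Gpc4 and Sdc2 higher and Hs3st3b1 lower. The median log2 fold change of the members was 0.01, and that of all genes was 0.00.

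**Figure D1:**
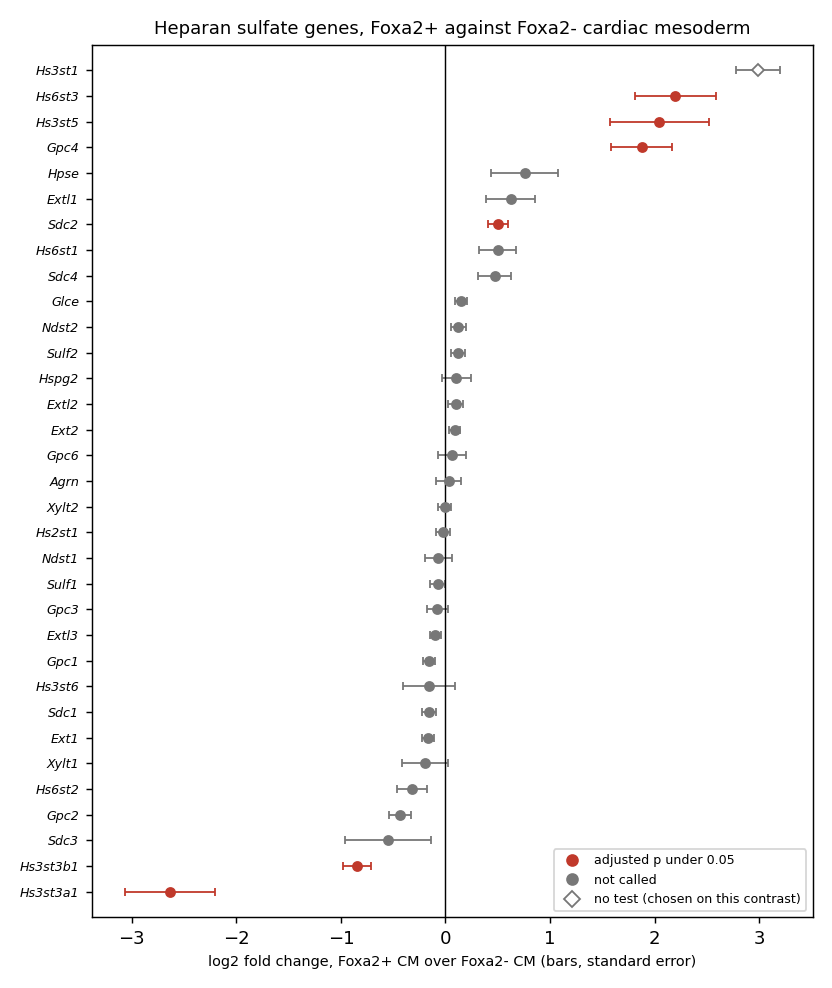
Log2 fold change of the 33 measured heparan sulfate genes, Foxa2+ CM over Foxa2− CM (x axis), with standard errors as bars. Red points were called at an adjusted p under 0.05, grey points were not, and the open diamond is Hs3st1, which has no test, at 2.99. The bar of Hs3st1 is not to be read as a test. Most genes lie within 0.5 of zero, with Hs6st3, Hs3st5 and Gpc4 at the upper end and Hs3st3a1 at −2.64.

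Without a replicate block, the CM calls rest on few libraries. With the block and every library, all 6 called members stayed called. Their adjusted p-values in edgeR ran from 3.18e-06 (Hs3st3b1) to 0.00445 (Hs3st5). The fits that left out a library had no block. Leaving out the second Foxa2+ CM library or the second Foxa2− CM library left 0 members called by edgeR, with 10 and 11 at an unadjusted p under 0.05, and leaving out the first Foxa2+ CM library left 3. Over all genes the same fits called 234, 239 and 412, against 990 with every library. The loss was thus not particular to the members. With all 3 libraries per group, DESeq2 called 6 members, 3 higher and 3 lower, and 1323 genes over all. Without the third Foxa2+ CM library, in which Foxa2 is low, 4 members were called, and 957 genes over all. Without the third Foxa2− CM library, in which the endothelial genes are high, 8 members were called, and 1701 genes over all. Hs3st5 was not among these 8 (edgeR, adjusted p = 0.061), so they included members outside the 6 that edgeR called with every library.

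Among the 3-O-sulfotransferases, members moved both ways. Hs3st1, which makes the 3-O-sulfated site that antithrombin binds, is a gene on the minus strand at chr5:39613935-39755475 (mm10). It was measured at 35.0, 34.9 and 23.3 CPM in Foxa2+ CM and at 4.58, 3.33 and 3.78 in Foxa2− CM. It fell to 1.38 and 2.60 CPM in haematopoietic mesoderm and to 0.838 and 0.668 in endoderm, so that the lowest Foxa2+ CM library lay above all 7 other samples. As a description, the log2 difference between the CM populations was 2.99, or 7.94-fold, and 3.16 without the third Foxa2+ CM library. The endoderm libraries, which have by far the most Foxa2 and the highest endoderm marker sums, held the least Hs3st1. The relation of Hs3st1 to the level of Foxa2 or to endoderm-like RNA was not tested. The 1 comparison without CM can be tested. Endoderm was lower than haematopoietic mesoderm by a log2 fold change of −1.38 (SE 0.42, adjusted p = 0.0312), on 9 and 8 counts against 22 and 33, and the call was lost when only these 2 groups were fitted or when either endoderm library or the second haematopoietic mesoderm library was left out.

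Hs3st3b1 and Hs3st3a1 make the other kind of 3-O-sulfated site, the one known as a receptor for herpes simplex virus glycoprotein D, and went the opposite way. Their catalytic domains are almost identical in sequence, so short reads from that part are hard to assign and the split between them is uncertain. They lie 513 kb apart on chromosome 11, on opposite strands. Hs3st3b1 (chr11:63885792-63922290) was the most abundant listed 3-O-sulfotransferase over the series. It stood at 78.2, 76.1 and 61.2 CPM in Foxa2+ CM and at 139, 144 and 105 in Foxa2− CM, with no overlap, a log2 fold change of −0.84 (SE 0.13, adjusted p = 0.0119), and −0.74 without the third Foxa2+ CM library (adjusted p = 0.0193). The call was lost without the second library of either CM group (adjusted p = 0.0557 and 0.0682). Fitting all 10 samples in 1 model gave −0.85 with an adjusted p of 0.207. In haematopoietic mesoderm it stood at 44.0 and 25.9 CPM, below every CM library, a log2 fold change against Foxa2− CM of −1.88 (SE 0.35, adjusted p = 0.00516) and against Foxa2+ CM of −1.03 (SE 0.34), which was not called (adjusted p = 0.0559). The endoderm libraries differed widely from each other, at 43.7 and 101 CPM, and no comparison with endoderm was called for this gene.

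Hs3st3a1 (chr11:64435332-64522841) was a low gene that, between the CM populations, had the direction of its neighbour. It had 3, 6 and 6 counts in Foxa2+ CM and 17, 30 and 43 in Foxa2− CM, or 0.219, 0.347 and 0.338 CPM against 1.05, 2.38 and 2.42. The groups did not overlap, and the log2 fold change was −2.64 (SE 0.43, adjusted p = 0.0134), for a gene that entered this fit through Foxa2− CM alone. It was −2.65 with no filter on low counts (adjusted p = 0.00271) and −2.72 without the third Foxa2+ CM library (adjusted p = 0.0289). The call was lost without the first or second Foxa2+ CM library or the second Foxa2− CM library, at adjusted p-values of 0.061 to 0.0727. Haematopoietic mesoderm, at 1.69 and 0.787 CPM, was above Foxa2+ CM by 2.01 (SE 0.62, adjusted p = 0.0439), a call that DESeq2 did not make and that was lost without any 1 of 5 libraries, namely the 3 of Foxa2+ CM, the second of Foxa2− CM and the first of haematopoietic mesoderm. Endoderm had 0 and 3 counts, which puts Foxa2− CM 14.6-fold higher with an exact 95% interval for counting error of 4.85 to 72.4 (adjusted p = 0.00648), and haematopoietic mesoderm 9.77-fold higher with an interval of 3.09 to 49.5 (adjusted p = 0.0202, lost without the first library of either group). An opposite-strand gene, F930015N05Rik, shares 32.9% of the exonic bases of Hs3st3a1, and since the library kit does not mark strand, reads from that stretch cannot be told apart.

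**Figure D2:**
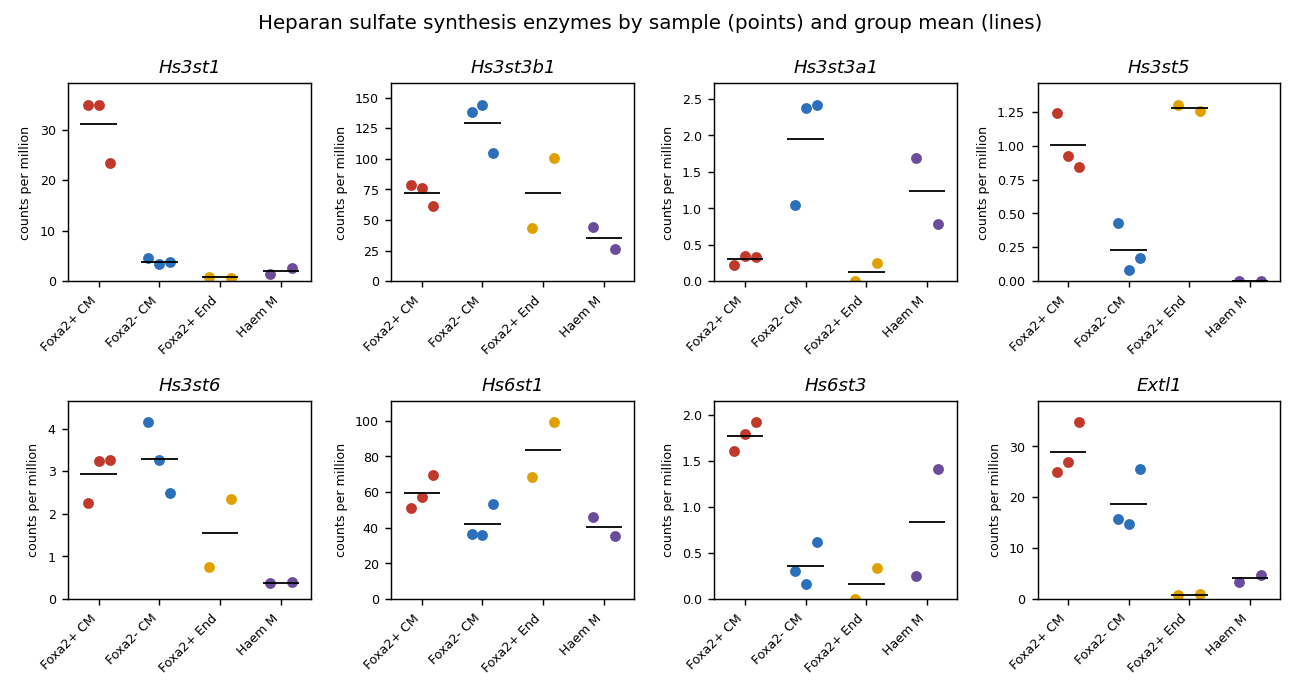
CPM (y axis, linear, from 0) of 8 chain-synthesis enzymes in each sample (points), by group on the x axis, with group means as lines. End is Foxa2+ endoderm and Haem M is haematopoietic mesoderm. Hs3st1 is at 23.3 to 35.0 CPM in Foxa2+ CM and at or under 4.58 in the other groups, while every Foxa2− CM sample lies above every Foxa2+ CM sample for Hs3st3b1.

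The sequences just upstream of the RefSeq starts of the 2 most abundant listed 3-O-sulfotransferases are shown. These genes moved in opposite directions between the CM populations, and Foxa2 is a forkhead factor that binds a known short motif. Each sequence is the 250 bases before the start in GRCm38.p6, 5′ to 3′ on the minus strand, at chr5:39644632-39644881 for Hs3st1 and chr11:63922285-63922534 for Hs3st3b1. Capitals mark the CCAAT box and its reverse complement ATTGG.
Hs3st1: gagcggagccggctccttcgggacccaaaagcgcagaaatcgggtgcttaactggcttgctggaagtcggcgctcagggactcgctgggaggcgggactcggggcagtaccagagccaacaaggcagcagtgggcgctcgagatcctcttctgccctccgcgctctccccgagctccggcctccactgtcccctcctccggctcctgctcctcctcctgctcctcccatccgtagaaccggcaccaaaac
Hs3st3b1: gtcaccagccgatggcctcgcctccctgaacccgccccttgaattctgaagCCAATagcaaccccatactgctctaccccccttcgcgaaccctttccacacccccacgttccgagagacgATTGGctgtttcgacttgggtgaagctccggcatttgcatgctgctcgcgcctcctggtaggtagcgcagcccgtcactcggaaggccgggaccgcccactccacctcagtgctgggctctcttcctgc
Hs3st1 held no CCAAT box and Hs3st3b1 held 2, a motif found in 33.8% of 32851 mouse promoter windows of this length. The GC box GGGCGG (or CCGCCC) was in neither strand of the Hs3st1 window and 2 times in that of Hs3st3b1, against 32.7% of all windows. The forkhead core TGTTTAC (or GTAAACA) was in 3.17% of all windows and in 0 of the 32 windows of the 27 members that RefSeq windows were given for. The RefSeq start of Hs3st1 lies within the gene as GENCODE M21 draws it, so transcripts that begin farther upstream are not covered, and the counts carry no information on binding.

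Hs3st5, which can make both kinds of 3-O-sulfated site, was near the limit of detection. It had 17, 16 and 15 counts in Foxa2+ CM (1.24, 0.925 and 0.845 CPM) and 7, 1 and 3 in Foxa2− CM (0.433, 0.0793 and 0.169 CPM). The log2 fold change was 2.05 (SE 0.48, adjusted p = 0.0448), for a gene that entered this fit through Foxa2+ CM alone, and 2.03 with no filter on low counts (adjusted p = 0.0296). That call was lost with DESeq2 (adjusted p = 0.109), with all 10 samples in 1 model and in 5 of the 6 fits that left out 1 CM library, among them the one without the third Foxa2+ CM library (2.16, adjusted p = 0.0638). Endoderm, at 1.30 and 1.25 CPM, lay above Foxa2− CM by 2.40 (SE 0.52, adjusted p = 0.00933), a call lost without the first endoderm library. Both haematopoietic mesoderm libraries had 0 counts, which makes Foxa2+ CM at least 4.73-fold higher and endoderm at least 6.03-fold higher against a floor of 3 counts per library. Endoderm against haematopoietic mesoderm was called (adjusted p = 0.00138), as were both CM populations against it (adjusted p = 0.00297 for Foxa2+ CM and 0.0366 for Foxa2− CM, whose bound was only 1.07-fold). The last of these was lost with DESeq2 and in 7 of the 10 fits that left out 1 library.

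Hs3st6 did not separate the CM populations, at 2.26, 3.24 and 3.27 CPM against 4.14, 3.25 and 2.48 (log2 fold change −0.16, adjusted p = 0.852). It was lower in haematopoietic mesoderm, where the libraries were at 0.376 and 0.393 CPM on only 6 and 5 counts, below every CM library. The log2 fold change was −2.91 against Foxa2+ CM (SE 0.52, adjusted p = 0.00442) and −3.07 against Foxa2− CM (SE 0.52, adjusted p = 0.0035). The endoderm libraries, at 0.745 and 2.34 CPM, were higher than haematopoietic mesoderm by 2.00 (SE 0.58, adjusted p = 0.0264), which held in neither fit that left out 1 haematopoietic mesoderm library nor without the second endoderm library.

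Summed over the 6 listed genes, 3-O-sulfotransferase RNA stood at close levels in the CM populations and had another makeup in each. Per exonic kilobase the sums were 33.7, 33.9 and 25.6 CPM per kb in Foxa2+ CM and 33.8, 33.9 and 25.6 in Foxa2− CM. Hs3st1 supplied 46.6%, 46.1% and 40.8% of the sum in Foxa2+ CM and 6.07%, 4.40% and 6.62% in Foxa2− CM, and Hs3st3b1 supplied 45.8% to 48.7% against 83.5% to 86.6%. Endoderm (10.1 and 23.0 CPM per kb) and haematopoietic mesoderm (10.3 and 6.92) had lower sums, of which Hs3st3b1 supplied 76.1% to 89.5%. These shares contain Hs3st1 and are a description without a test.

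**Figure D3:**
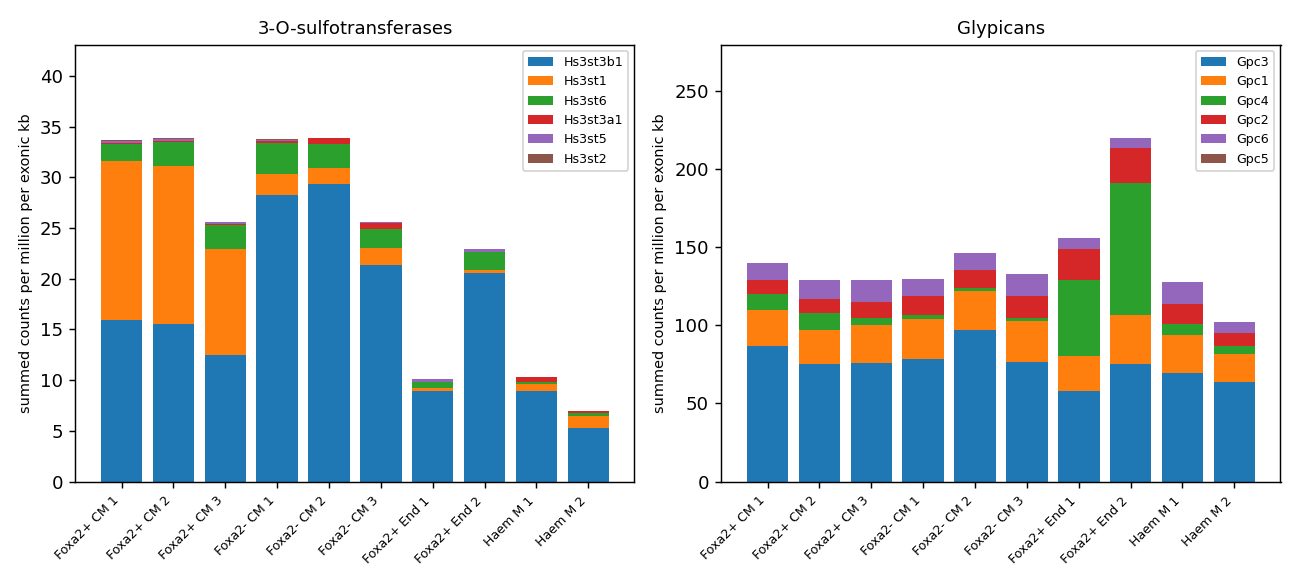
Summed level of the listed 3-O-sulfotransferases (left) and of the glypicans (right) in each of the 10 samples, as stacked bars in CPM per exonic kb from 0. In Foxa2+ CM the Hs3st1 segment is 40.8% to 46.6% of the 3-O-sulfotransferase bar, and in endoderm the Gpc4 segment is 31.2% to 38.2% of the glypican bar.

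Among the 6-O-sulfotransferases, which add sulfate groups that FGF and its receptors bind, Hs6st1 and Hs6st2 were the abundant forms and Hs6st3 a minor one. Hs6st3 was higher in Foxa2+ CM, at 1.61, 1.79 and 1.92 CPM against 0.309, 0.159 and 0.620, with no overlap. This was a log2 fold change of 2.20 (SE 0.39, adjusted p = 0.0172) on 22 to 34 counts against 2 to 11, for a gene that entered both models through Foxa2+ CM. With no filter on low counts it was 2.19 (adjusted p = 0.00558), and 2.14 without the third Foxa2+ CM library (adjusted p = 0.0355). The call was lost with all 10 samples in 1 model (adjusted p = 0.148) and without 4 of the 6 CM libraries, the first and second of each group. Endoderm had 0 and 4 counts (0 and 0.334 CPM), called lower than Foxa2+ CM at an adjusted p of 0.0223 (0.0102 with no filter) but not without the first endoderm or the second Foxa2+ CM library, and haematopoietic mesoderm had 4 and 18.

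Hs6st1 was highest in endoderm, at 68.4 and 99.1 CPM, against 51.3, 57.1 and 69.5 in Foxa2+ CM, 36.5, 36 and 53.1 in Foxa2− CM, and 46.0 and 35.2 in haematopoietic mesoderm. Endoderm overlapped Foxa2+ CM and lay above the other groups, by a log2 fold change of 1.00 over Foxa2− CM (SE 0.22, adjusted p = 0.00862) and of 1.04 over haematopoietic mesoderm (SE 0.25, adjusted p = 0.0107). Both calls were lost without the second endoderm library, and the second also without the second haematopoietic mesoderm library. Between the CM populations the change of 0.50 (SE 0.18) was not called (adjusted p = 0.163). Hs6st2, at 31.5 to 60.8 CPM, passed the test in none of the 6 comparisons.

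Ndst1 and Ndst2, which replace acetyl with sulfate groups on the growing chain, the 2-O-sulfotransferase Hs2st1 and the epimerase Glce were not called between the CM populations, with log2 fold changes of −0.07, 0.12, −0.02 and 0.15. Hs2st1 stood between 91.6 and 114 CPM in all 10 samples and was called in none of the comparisons. In endoderm, Ndst1 was at 106 and 142 CPM against 149 to 212 in CM, a log2 fold change of −0.49 against Foxa2+ CM (SE 0.16, adjusted p = 0.0382) and −0.56 against Foxa2− CM (SE 0.16, adjusted p = 0.0257), and Ndst2 was lower than in Foxa2+ CM by 0.29. None of these 3 calls held without the first endoderm library. Glce was lower in haematopoietic mesoderm than in Foxa2+ CM and in endoderm by less than 0.3 on the log2 scale, with adjusted p-values of 0.0495 and 0.0446, both lost when only the groups compared were fitted and without either haematopoietic mesoderm library.

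At the start of the chain, the xylosyltransferase Xylt2 was the expressed form. It stood at 85.6 to 94.2 CPM across the 6 CM libraries, 55.8 and 62.2 in endoderm and 73.3 and 64.5 in haematopoietic mesoderm, with no overlap between CM and either. Endoderm was below Foxa2+ CM by a log2 fold change of −0.60 (SE 0.08, adjusted p = 0.000586) and below Foxa2− CM by −0.61 (SE 0.08, adjusted p = 0.000632), and both held in every alternative fit. Haematopoietic mesoderm was lower by 0.38 and 0.39, calls that were lost without its second library. Xylt1 did not exceed 4.68 CPM and was called nowhere.

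The polymerase Ext1, whose partner in the active complex is Ext2, was lower in haematopoietic mesoderm alone, at 83.5 and 69.2 CPM against 130 to 157 in all other samples. The log2 fold change was −0.81 against Foxa2+ CM (SE 0.09, adjusted p = 0.000385), −0.98 against Foxa2− CM (SE 0.09, adjusted p = 0.00018) and, read the other way, 0.92 for endoderm over haematopoietic mesoderm (SE 0.09, adjusted p = 0.000108), and each held in every alternative fit. Ext2, at 64.9 to 97.6 CPM, was called in none of the comparisons, and neither was Extl3, which starts the chain on the linker. Extl2, whose product can stop chain growth, was lower in endoderm, at 35.8 and 40.2 CPM against 49.7 to 57.6 in CM (−0.53 against Foxa2+ CM, SE 0.10, adjusted p = 0.00345).

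Extl1, a further member of this family, was high in both CM populations. It was measured at 24.9, 26.9 and 34.7 CPM in Foxa2+ CM, 15.6, 14.8 and 25.6 in Foxa2− CM, and 3.38 and 4.80 in haematopoietic mesoderm. In endoderm it was at 0.745 and 1.00 CPM, on only 8 and 12 counts. No library outside CM came near the lowest CM library. Against Foxa2+ CM the log2 fold change was −5.02 in endoderm (SE 0.38, adjusted p = 2.02e-05) and −2.82 in haematopoietic mesoderm (SE 0.31, adjusted p = 0.000462). Endoderm was also below haematopoietic mesoderm (−2.20, SE 0.41, adjusted p = 0.0029). All calls of Extl1 against endoderm and haematopoietic mesoderm held in every alternative fit, while the difference between the CM populations, 0.62 (SE 0.23), was not called (adjusted p = 0.187). In bulk samples, fewer cells of a type and less RNA per cell cannot be told apart.

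Gpc4, a glypican that binds Wnt and FGF ligands, was the core protein with the largest called difference between the CM populations. It stood at 27.1, 28.3 and 13.2 CPM in Foxa2+ CM, 7.36, 5.63 and 5.69 in Foxa2− CM, 129 and 223 in endoderm, and 19.0 and 14.2 in haematopoietic mesoderm. The third Foxa2+ CM library overlapped haematopoietic mesoderm but lay above Foxa2− CM, and endoderm lay far above all. The log2 fold change between the CM populations was 1.87 (SE 0.29, adjusted p = 0.0116), or 3.67-fold, and 2.16 without the third Foxa2+ CM library (adjusted p = 0.00123). Without the second library of either CM group it was 1.67 and 1.80 and was not called (adjusted p = 0.0588 and 0.0752). Endoderm exceeded Foxa2+ CM by 2.95 (SE 0.33, adjusted p = 0.000164), Foxa2− CM by 4.82 (SE 0.36, adjusted p = 2.1e-05) and haematopoietic mesoderm by 3.41 (SE 0.39, adjusted p = 0.000216), each in every alternative fit. Haematopoietic mesoderm exceeded Foxa2− CM by 1.41 (SE 0.36, adjusted p = 0.0204), a call lost without the second or the third Foxa2− CM library or the first haematopoietic mesoderm library. The endoderm marker sum also ran from endoderm through Foxa2+ CM to Foxa2− CM, but between the CM populations through Foxa2 and Sox17 alone of its 5 genes, and in haematopoietic mesoderm, where Gpc4 was above Foxa2− CM, the sum was not (34.8 and 42.6 against 38.5 to 48.8 CPM). The part of endoderm-like RNA in the CM difference was not tested.

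Gpc4 (chrX:52053021-52165252) lies 107 kb from Gpc3 (chrX:52272426-52613950) on the same strand, yet Gpc3 did not follow it. Gpc3, which restrains Hedgehog signalling, was between 156 and 261 CPM in the 10 samples, and its log2 fold change was −0.08 between the CM populations (adjusted p = 0.814) and 0.00 between endoderm and haematopoietic mesoderm (adjusted p = 0.988). Gpc3 supplied 54.3% to 66.1% of the summed glypican level per kilobase in the mesoderm samples, and 34.2% and 37.1% in endoderm, where Gpc4 supplied 31.2% and 38.2% against 1.45% to 8.26% elsewhere. Gpc3 averaged 1.11 counts per exonic base over the samples, the highest coverage on the list, and the removal of duplicate reads limits the counts of genes read this densely, as it may for Gpc4 in endoderm at up to 1.01.

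Gpc2, best known from the developing nervous system, was also highest in endoderm. It stood at 84.9 and 95.6 CPM there, above all 8 mesoderm libraries, which ranged from 34.9 to 61.6. On the log2 scale it was higher by 1.17 over Foxa2+ CM (SE 0.17, adjusted p = 0.000735), 0.73 over Foxa2− CM (SE 0.17, adjusted p = 0.0102) and 1.02 over haematopoietic mesoderm (SE 0.19, adjusted p = 0.00292). The second of these was lost without the second endoderm library. Foxa2+ CM, at 39.2, 37.7 and 43.6 CPM, lay below Foxa2− CM, at 52.1, 49.2 and 61.6, without overlap, but at a log2 fold change of −0.44 (SE 0.11) the adjusted p was 0.0529, and DESeq2 gave 0.00806. The summed pluripotency genes were also highest in endoderm, and Foxa2− CM exceeded Foxa2+ CM in them, whereas haematopoietic mesoderm had a higher mean of Gpc2 than Foxa2+ CM (44.3 against 40.2 CPM) and a pluripotency sum of 45.1 and 24.1 CPM against 38.9 to 45.7. The part of these genes in the level of Gpc2 was not tested. A gene model on the same strand that was not counted, Gm43720, covers 55.6% of the exonic bases of Gpc2.

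Gpc1 and Gpc6 completed the measured glypicans. Gpc1 ranged from 94.3 to 162 CPM and was called nowhere, and 18.9% of its exonic bases are shared with Ankmy1 on the opposite strand. Gpc6 was lower in endoderm, at 44.4 CPM in both libraries, than in CM, at 67.7 to 90.9, with log2 fold changes of −0.85 and −0.79 against Foxa2+ CM and Foxa2− CM (adjusted p = 0.0305 and 0.0461). Both were lost without either endoderm library and without the second or the third Foxa2+ CM library. The haematopoietic mesoderm libraries disagreed for Gpc6, at 91.8 and 45.6 CPM.

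**Figure D4:**
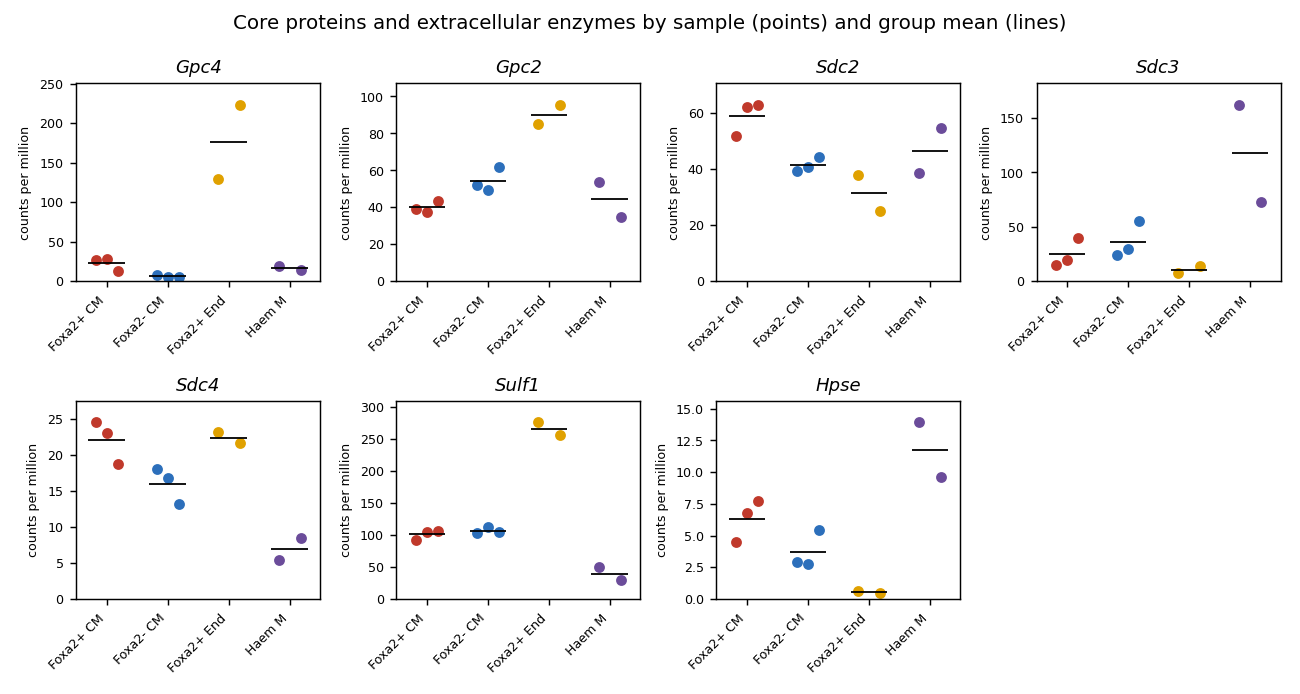
CPM (y axis, linear, from 0) of 5 core proteins and of the extracellular enzymes Sulf1 and Hpse in each sample (points), by group on the x axis, with group means as lines. End is Foxa2+ endoderm and Haem M is haematopoietic mesoderm. Gpc4 and Sulf1 are highest in both endoderm samples, and Sdc3 and Hpse are highest in both haematopoietic mesoderm samples.

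The syndecans each had their own pattern. Sdc2, which acts in cell migration and in left-right patterning, was higher in Foxa2+ CM, at 51.7, 62.0 and 63.1 CPM against 39.2, 40.9 and 44.5. The groups did not overlap, with a log2 fold change of 0.51 (SE 0.10, adjusted p = 0.0217). Without the third Foxa2+ CM library it was 0.46 (adjusted p = 0.0517), and it was also lost with all 10 samples in 1 model (adjusted p = 0.207) and without the second Foxa2+ CM library or the first or second Foxa2− CM library. Endoderm, at 37.8 and 25.0 CPM, was lower than Foxa2+ CM (−0.91, SE 0.20, adjusted p = 0.00675), a call lost without the second endoderm library. Against Foxa2− CM it was not called (−0.41, adjusted p = 0.155).

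Sdc3, a syndecan with a long extracellular part, was highest in haematopoietic mesoderm, at 162 and 73.2 CPM. It was at 15.0, 19.8 and 39.7 in Foxa2+ CM, 24.1, 29.7 and 54.9 in Foxa2− CM, and 7.07 and 13.6 in endoderm. Both haematopoietic mesoderm libraries lay above all others, and endoderm lay below all. The third library of each CM group had the most Sdc3 and also the most Cdh5 and Pecam1 of its group, whereas in haematopoietic mesoderm the library with more Sdc3 had the lower endothelial sum (205 against 413 CPM). Endoderm was below haematopoietic mesoderm by −3.50 (SE 0.62, adjusted p = 0.00238), in every alternative fit. Haematopoietic mesoderm exceeded Foxa2+ CM by 2.24 (SE 0.50, adjusted p = 0.0117) and Foxa2− CM by 1.70 (SE 0.50, adjusted p = 0.037), and both calls were lost without its first library. The first was also lost without the first Foxa2+ CM library, and the second without the second Foxa2+ CM library, the first or second Foxa2− CM library or either endoderm library and when only the groups compared were fitted.

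Sdc4, a syndecan of focal adhesions, was low in haematopoietic mesoderm, at 5.39 and 8.42 CPM. All other samples were higher, at 24.5, 23.1 and 18.7 in Foxa2+ CM, 18, 16.8 and 13.1 in Foxa2− CM, and 23.2 and 21.6 in endoderm. The log2 fold change was −1.68 against Foxa2+ CM (SE 0.23, adjusted p = 0.00132), −1.22 against Foxa2− CM (SE 0.23, adjusted p = 0.00587) and 1.70 for endoderm over haematopoietic mesoderm (SE 0.25, adjusted p = 0.000878), and each held in every alternative fit. Between the CM populations Sdc4 did not overlap, but its log2 fold change of 0.47 was not called (edgeR, adjusted p = 0.14). With a replicate block in edgeR the adjusted p was 0.00565. Sdc1, the most abundant syndecan, stayed between 86.2 and 115 CPM. Its 1 call, haematopoietic mesoderm over Foxa2+ CM by 0.30 (adjusted p = 0.0394), was lost in 11 of the alternative fits.

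Of the matrix core proteins, perlecan Hspg2 was lower in endoderm, at 325 and 397 CPM against 461 to 662 in the 8 mesoderm samples. Its log2 fold change was −0.70 against Foxa2+ CM (SE 0.15, adjusted p = 0.00658), −0.59 against Foxa2− CM (SE 0.15, adjusted p = 0.0164) and −0.81 against haematopoietic mesoderm (SE 0.16, adjusted p = 0.00485), each lost without the first endoderm library. Agrn, at 254 to 423 CPM, was called in none of the comparisons.

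Outside the cell, the sulfatases remove 6-O-sulfate groups from finished chains and heparanase cuts them. Sulf1 was measured at 276 and 256 CPM in endoderm, 91.7, 104 and 107 in Foxa2+ CM, 103, 112 and 105 in Foxa2− CM, and 49.6 and 29.6 in haematopoietic mesoderm. Only the CM populations overlapped, and they did not differ by the test (−0.07, SE 0.07, adjusted p = 0.714). Endoderm exceeded Foxa2+ CM by 1.40 (SE 0.16, adjusted p = 0.000227), Foxa2− CM by 1.32 (SE 0.16, adjusted p = 0.000371) and haematopoietic mesoderm by 2.74 (SE 0.20, adjusted p = 1.88e-05). Haematopoietic mesoderm was below Foxa2+ CM by −1.35 (SE 0.18, adjusted p = 0.00109) and below Foxa2− CM by −1.42 (SE 0.18, adjusted p = 0.000874), and these 5 calls held in every alternative fit. Sulf2 was more abundant and flatter, at 171 to 243 CPM, and its 1 call, haematopoietic mesoderm over Foxa2− CM by 0.38 (adjusted p = 0.0231), was lost without 4 of the libraries, namely the first or the third of Foxa2− CM or either of haematopoietic mesoderm.

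Hpse, the heparanase, was a low gene with its highest level in haematopoietic mesoderm, at 13.9 and 9.60 CPM. It was at 4.53, 6.76 and 7.72 in Foxa2+ CM, 2.91, 2.78 and 5.47 in Foxa2− CM, and 0.652 and 0.501 in endoderm (7 and 6 counts). The CM populations overlapped (0.76, adjusted p = 0.246), while endoderm lay below all others and haematopoietic mesoderm above all. Endoderm was lower than haematopoietic mesoderm by −4.34 (SE 0.49, adjusted p = 0.000207) and than Foxa2+ CM by −3.45 (SE 0.47, adjusted p = 0.000547), and haematopoietic mesoderm was higher than Foxa2− CM by 1.65 (SE 0.35, adjusted p = 0.009), each in every alternative fit. Haematopoietic mesoderm against Foxa2+ CM, at 0.89 (SE 0.34), was not called (adjusted p = 0.0909). The 6 haematopoietic mesoderm markers (Kdr, Tal1, Lmo2, Etv2, Gata1, Runx1) were detected in every group and summed to 1439 and 1475 CPM in haematopoietic mesoderm, 669 to 890 in CM and 48.4 and 96.8 in endoderm. Their part and that of the endothelial genes in the levels of Hpse and Sdc3 was not tested.

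**Figure D5:**
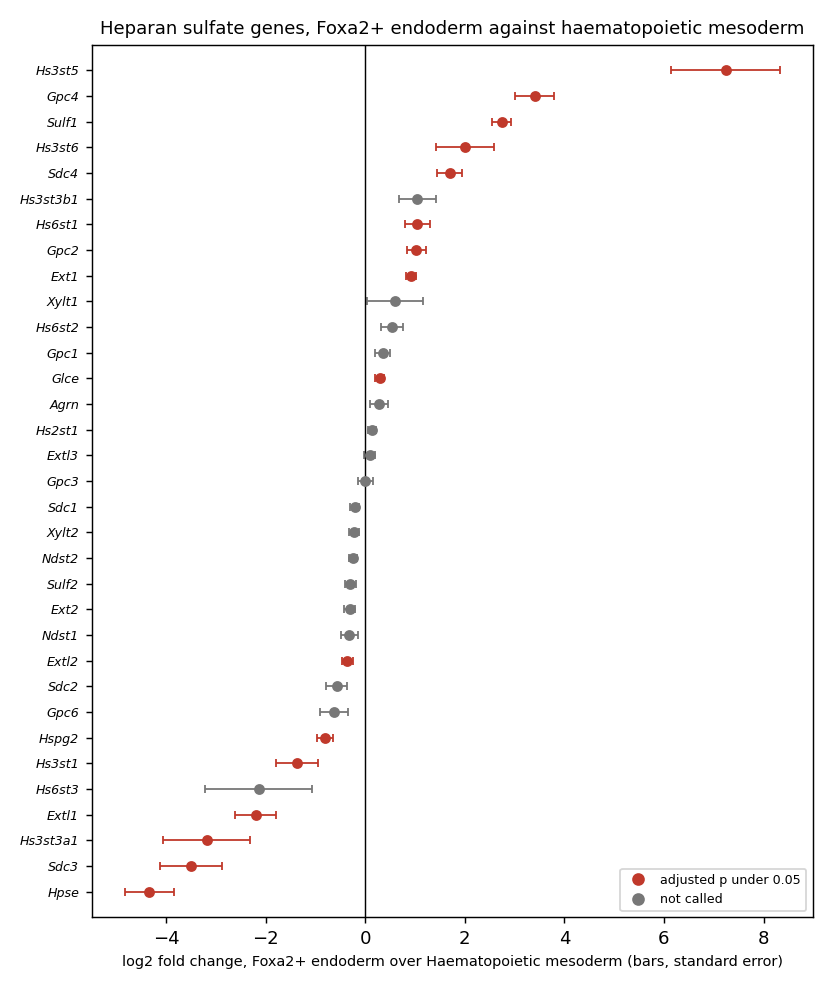
Log2 fold change of the 33 measured heparan sulfate genes, Foxa2+ endoderm over haematopoietic mesoderm (x axis), with standard errors as bars and called genes in red. Gpc4 (3.41) and Sulf1 (2.74) are high and Hpse (−4.34) and Sdc3 (−3.50) low, and the value of Hs3st5 rests on 0 counts in haematopoietic mesoderm and is not a measure of size.

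The remaining comparisons set endoderm and haematopoietic mesoderm against each other and against CM. Of the 33 genes tested between endoderm and haematopoietic mesoderm, 16 were called, 9 higher in endoderm and 7 lower, where 32.6% of the 16180 genes tested were called. Endoderm against Foxa2+ CM gave 13 calls of 32, 3 higher and 10 lower (35.0% of all genes), and against Foxa2− CM 14 of 32, 5 higher and 9 lower (30.1%). Haematopoietic mesoderm against Foxa2+ CM gave 11 of 32, 3 higher and 8 lower (22.8%), and against Foxa2− CM 12 of 32, 4 higher and 8 lower (21.6%). These comparisons share samples with each other. The median log2 fold change of the members ranged from −0.20 to 0.01 over the 6 comparisons, and that of all genes from 0.00 to 0.03. Without the first endoderm library both comparisons of endoderm with CM gave 8 calls.

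Genes of neighbouring pathways were also compared between the CM populations. The lists covered the linkage region, sulfate donor supply, lysosomal breakdown, glypican release, chondroitin sulfate and other proteoglycans. They held 56 further names, of which 55 were found. Of these, 51 were tested and 1 was called, where 6.48% of all genes were, and nothing is read from that count. The called gene was Tgfbr3 (betaglycan, a part-time proteoglycan and TGFβ co-receptor), at 49.2, 59.3 and 47.2 CPM in Foxa2+ CM against 20.8, 22.4 and 27.6, a log2 fold change of 1.13 (SE 0.14, adjusted p = 0.00475). Between endoderm and haematopoietic mesoderm 5 of 52 were higher and 17 lower, where 32.6% of all genes were called. The top genes in each direction were Ncan (neurocan), with 123 and 81 counts in endoderm against 6 and 1, a log2 fold change of 5.19 (SE 0.62, adjusted p = 0.000289), and Csgalnact1, which starts chondroitin sulfate chains, with 3 and 4 counts against 1216 and 808, a log2 fold change of −7.79 (SE 0.88, adjusted p = 0.000196). Cd44, a receptor that can carry heparan sulfate, stood at 5.03 and 6.85 CPM in endoderm against 43.2 and 29.1 in haematopoietic mesoderm (−2.60, SE 0.27, adjusted p = 0.000135).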

How the data were processed

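Populations were sorted from Foxa2-hCD4 mESC cultures at day 5. The authors prepared libraries with a poly(A) kit that does not mark strand, sequenced from a single end and aligned with STAR 2.5.0a to mm10, removed duplicates with Picard and counted reads with HTSeq 0.6.0 (the tool versions are in the submitters' processing notes). The deposited values are raw counts per Ensembl gene for each sample, not normalized. The strand setting of the counting is not given in the sources used here.

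From these counts, genes were filtered with edgeR's filterByExpr, scaled by TMM and tested with edgeR 4.0.16 (quasi-likelihood test, R 4.3.3), with Benjamini-Hochberg adjustment over all genes and calls at an adjusted p under 0.05. Foxa2+ CM and Foxa2− CM were compared over their 6 samples (15284 genes), and all other comparisons came from 1 model of the 10 samples (16180 genes). SE is the size of the log2 fold change over the root of its F statistic. CPM per kb uses the union of exons in GENCODE M21, through which 37607 of 38924 identifiers had a symbol. Promoter windows are RefSeq's (GRCm38.p6), for 27 of the 37 genes. Intervals and floors cover counting error only, and duplicate removal caps densely covered genes.

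The members and the related and marker lists were chosen with earlier results of these data known. All 37 were accounted for by role, and those called at 2-fold or more in any comparison were given by sample. The related genes named are the top called ones in each direction, and Cd44, named after its values were seen. Simulated counts with 200 genes changed by 1.5 on the log2 scale returned 94.5% of them in the CM comparison of 15284 genes and 82% in that of endoderm with haematopoietic mesoderm of 16180 genes. In these, 11 and 10 unchanged genes were called. Most members changed by less than 1.5 between the CM populations, and the simulation does not cover changes of that size. Alternatives were DESeq2 1.42.0, its size factors, other filters, a 2-fold limit, other sets of samples, a replicate block and leaving out each sample.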

Additional observations from a re-analysis of the deposited data

How the results depend on the processing

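The number of members called between Foxa2+ CM and Foxa2− CM (6) moved to 2 with all 10 samples in 1 model and ranged from 0 to 8 when 1 library was left out. Leaving out 1 library gave 8 to 15 calls for endoderm against Foxa2+ CM (13), 8 to 14 against Foxa2− CM (14), 8 to 11 for haematopoietic mesoderm against Foxa2+ CM (11), 9 to 12 against Foxa2− CM (12) and 13 to 18 for endoderm against haematopoietic mesoderm (16). A limit of 2-fold left 6, 7 and 7 members for endoderm against Foxa2+ CM and Foxa2− CM and haematopoietic mesoderm against Foxa2+ CM. The model of all 10 samples brings more samples, and the other settings named here bring fewer samples or a stricter limit. Beyond that, the cause of the moves was not tested. No called member changed sign. Of the members' other values, 1127 kept their side of the threshold across settings, 32 gained a call and 21 lost one, and with 1 library left out 1682 kept theirs, 39 gained and 123 lost a call, while 4 values of Hs3st1, which has no test, moved by more than their SE.

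A replicate block raised the CM count from 6 to 13 members (8 higher and 5 lower), and all genes from 990 to 2556. Same-numbered CM samples correlated in their deviations from the group means by 0.48, 0.0855 and 0.58, against −0.547 to 0.285 for the other pairs. For numbers 1 and 3 the same-numbered sample was the best match. For Foxa2+ CM number 2 it was Foxa2− CM number 1, by 0.0974 against 0.0855, a gap too small to decide on pairing. The main fit did not take the numbers as pairs, and the count of CM calls depends on that choice. Whether same-numbered samples share a culture was not tested. Over all comparisons the block left 182 member values on their side, with 13 calls gained and 3 lost.

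Counts over all genes moved by more than 1.5 times as follows. The CM count of 990 became 460 at 2-fold, 288 with all 10 samples in 1 model and 234 to 1701 with 1 library left out. At 2-fold, endoderm against Foxa2+ CM went from 5660 to 3032, endoderm against Foxa2− CM from 4875 to 2748, haematopoietic mesoderm against Foxa2+ CM from 3685 to 1848 and against Foxa2− CM from 3492 to 1884, and endoderm against haematopoietic mesoderm from 5276 to 3098. With only the groups compared, the last 2 became 2159 and 2675. Without the first endoderm library the comparisons of endoderm with CM gave 3601 and 3015, and without 1 CM library those of haematopoietic mesoderm gave as few as 2320 and 2140. Other scalings moved the median of all genes by less than 0.05 on the log2 scale. With 2 or 3 samples a group and under 20 counts, Hs3st5, Hs3st3a1 in Foxa2+ CM and endoderm, and Hs6st3 outside Foxa2+ CM are limited by depth. So are Extl1, Hpse and Hs3st1 in endoderm and Hs3st6 in haematopoietic mesoderm.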
